A study of Homo sapiens with 4 samples.

Results

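The chemokine system of SeAx cells was taken as every PrimeView probe set whose single gene symbol names a chemokine ligand (CCL, CXCL, XCL or CX3CL) or a chemokine receptor (CCR, CXCR, XCR, CX3CR or ACKR). Of the 49293 probe sets and 18244 genes tested, 105 probe sets of 58 genes were members, namely 63 probe sets of 37 ligand genes and 42 probe sets of 21 receptor genes. A single probe set measured 30 of the genes, and several measured the other 28. A further 16 probe sets carry a member symbol together with other symbols and were left out, and 8 symbols, among them CCL4, CCL3L1 and XCL2, occur only on such probe sets.

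SeAx is an established human T cell line from Sézary syndrome, the leukemic form of cutaneous T-cell lymphoma (CTCL). The series holds 2 arrays labelled as control and 2 arrays of cells given a lentiviral miR-124 vector, numbered 1 and 2 within each condition, and it compares the transcriptomes with and without ectopic miR-124. The study describes its control cells as non-transduced and its transduced cells as selected with puromycin, so the effects of miR-124, of the vector and of the selection cannot be told apart. The labels do not say whether the 2 arrays of a condition hold RNA of separate cultures, and the p-values measure only the spread between these arrays, which may be technical.

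Chemokines are small secreted proteins that attract leukocytes along a gradient. Their receptors span the membrane and signal through inhibitory G proteins to the kinases and GTPases that move the cell, and the atypical receptors (ACKR) bind chemokines without this signal and mostly remove them. In skin lymphoma the system is best known for CCR4 and CCR10, which guide T cells to the skin, for CCR7, which guides them to lymph nodes, and for CXCR4, the receptor of CXCL12.

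Each value is a log2 signal after Robust Multi-array Average (RMA) summarization, and probe sets differ in how strongly they bind, so a level describes the signal of a probe set and is no measure of one transcript against another. A gene was read through its brightest probe set and called above background when that probe set exceeded 5.23 on all 4 arrays, the highest mean that the array's 23 background probe sets reached on any array. These background probe sets differ in the number of G and C bases of their probes, from 3 to 25, and their own values ran from 2.97 to 9.64. Of the T-cell markers, 12 of the 13 measured were above the background mean and 4 (CD2, CD3D, CD3G and IL2RG) exceeded every background probe set, while CD4 read 6.14 to 6.24 and CD3E 5.33 to 5.82, within the range of the background probe sets.

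Of the chemokine and receptor genes, 35 of 58 (60.3%) were above the background mean, against 78.8% of all genes. They were 21 of 37 ligands and 14 of 21 receptors. On a list of genes of other tissues, 22 of the 37 measured were above the background mean too, and 0 above all background probe sets. A signal above this mean therefore does not show that SeAx expresses a gene. Above all 23 background probe sets on every array were 5 genes (8.62%, against 25.5% of all genes), namely the ligands CCL5 and CXCL10 and the receptors CCR4, CCR7 and CXCR4. The median gene had a signal of 7.61, and the means of 8 ligands and 6 receptors were higher.

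**Figure D1:**
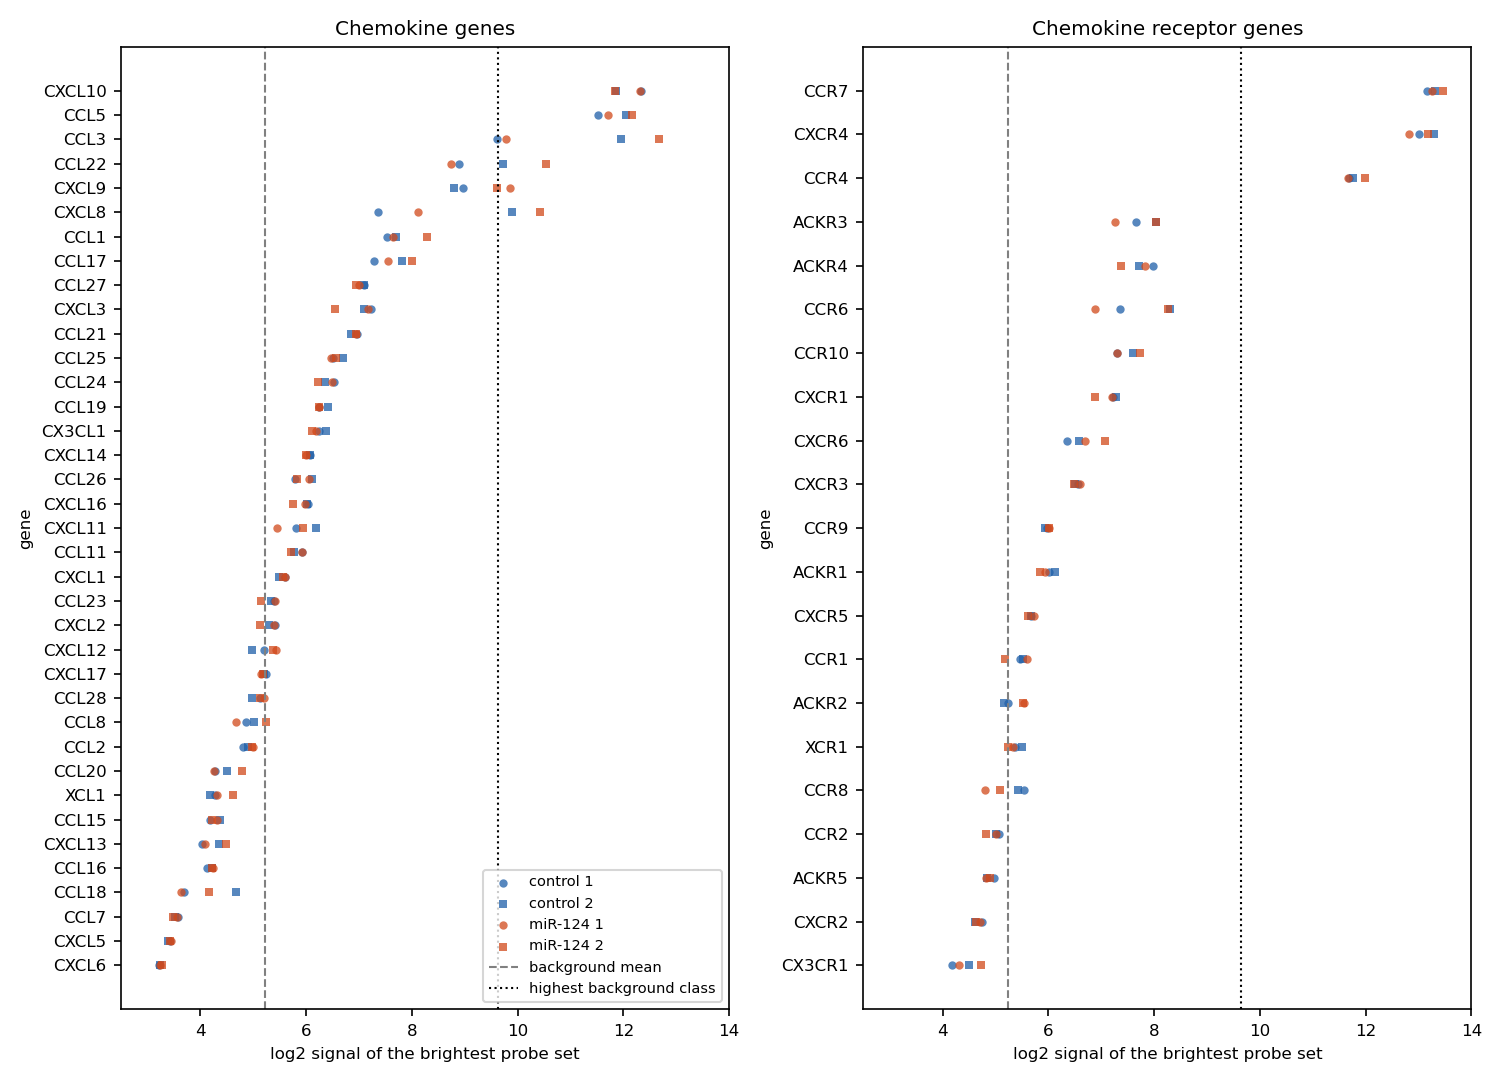
Log2 signal of the brightest probe set of each of the 58 chemokine ligand and receptor genes on the 2 control and 2 miR-124 arrays (points), with the background mean of 5.23 (dashed) and the highest background probe set, 9.64 (dotted). CCL5, CXCL10, CCR4, CCR7 and CXCR4 lie above all background probe sets on every array, and 16 ligands and 7 receptors are not above the background mean on all 4 arrays; the order along the axis is one of signal, not of transcript number.

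Among the receptors, CCR7, the lymph node homing receptor, read 13.16 and 13.32 on the control arrays and 13.26 and 13.47 on the miR-124 arrays. CXCR4 read 13.01 and 13.30 in control and 12.81 and 13.19 in miR-124 cells. CCR4, a skin-homing receptor of memory T cells, read 11.68 and 11.77 against 11.67 and 11.98. For all 3 receptors the arrays of the conditions overlapped, and for each the difference stayed within the spread of the arrays. The log2 difference, miR-124 minus control, was 0.13 (standard error (SE) 0.12) for CCR7, -0.16 (SE 0.18) for CXCR4 and 0.10 (SE 0.14) for CCR4, with n = 2 per condition and the direction as the labels assign the arrays, here and throughout. The 4 probe sets of CXCR4 gave -0.23 to -0.13, and in every one of them the arrays overlapped.

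The other receptors gave signals inside the range of the background probe sets. CCR10, the other skin-homing receptor, read 7.30 and 7.59 in control and 7.30 and 7.74 in miR-124 cells (log2 difference 0.07, SE 0.19). ACKR3, an atypical receptor for CXCL12, read 7.65 and 8.03 against 7.26 and 8.03 (-0.20, SE 0.30). ACKR4, which removes the CCR7 ligands, read 7.98 and 7.71 against 7.82 and 7.38 (-0.24, SE 0.19). On these brightest probe sets the conditions overlapped. The remaining probe sets of ACKR3 and ACKR4 differed by -0.17 to 0.15, and in 2 of ACKR3 and 1 of ACKR4 both miR-124 arrays lay below both controls. CCR6, the receptor of CCL20, read 7.35 and 8.29 in control and 6.89 and 8.26 in miR-124 cells (-0.25, SE 0.56, unadjusted p = 0.68 by limma). All 3 CCR6 probe sets were lower on average in miR-124 cells, with differences of -0.41 to -0.25 and overlapping arrays, and CCL20 itself read 4.26 to 4.79, below the background mean on every array.

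Among the ligands, CCL5, which attracts T cells and monocytes, read 11.52 and 12.04 in control and 11.70 and 12.16 in miR-124 cells, and its 3 probe sets differed by 0.05 to 0.31, all with overlapping arrays. CXCL10, an attractant of activated T cells, read 12.34 and 11.85 against 12.32 and 11.84, so that each miR-124 array lay beside the control array of its number. CCL3, a ligand of CCR1, read 9.62 and 11.95 against 9.78 and 12.68. Its probe set carries the suffix that Affymetrix gives to probes that can match other sequences, and its near copies CCL3L1 and CCL3L3 have no probe set of their own here, so the CCL3 signal may include theirs.

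Both ligands of CCR4 were above the background mean on all arrays, but neither was above all 23 background probe sets on every array. On each array CCL22 exceeded at least 20 of them and CCL17 at least 17. The mean signal of CCL17 (7.66) was below the 95th percentile of genes of other tissues (7.78). CCL22 read 8.89 and 9.72 in control and 8.75 and 10.53 in miR-124 cells (log2 difference 0.33, SE 0.66). CCL17 read 7.28 and 7.81 against 7.55 and 8.0 (0.23, SE 0.25). The means were higher in miR-124 cells for both, the arrays overlapped, and the unadjusted p by limma was 0.64 for CCL22 and 0.39 for CCL17. Among the other ligands, CCL1, the ligand of the chemokine receptor CCR8, read 7.52 and 7.70 against 7.64 and 8.29 (0.36, SE 0.24, unadjusted p = 0.20 by limma), again with overlap. CXCL8, the neutrophil attractant, read 7.36 and 9.89 against 8.11 and 10.41, and the range within each condition exceeded the difference between the condition means. On every array CCL1 and CXCL8 each exceeded at least 18 of the 23 background probe sets.

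The question of the series is what ectopic miR-124 changes. The threshold of the study asks for more than 1.5-fold change together with an unadjusted p below 0.05. Of the 105 member probe sets, 1 passed (0.952%), that of CXCL9, against 91 of all 49293 (0.185%). At an unadjusted p under 0.05 alone, 6 of 105 passed (5.71%, against 4.73% of all probe sets), 3 of them higher (2.68% of all) and 3 lower (2.05% of all) in miR-124 cells. After Benjamini-Hochberg adjustment over all probe sets, limma called 0 of the 105 and 0 of all, where 2331 had an unadjusted p under 0.05.

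The direction of change was balanced over all 58 genes, of which 14 read above the median gene. On the brightest probe set, 28 of 58 genes had a higher mean in miR-124 cells (48.3%, against 51.8% of all genes) and 30 a lower one, at a median log2 difference of -0.01, against 0.01 over all genes. The median was 0.02 over the 37 ligands and -0.05 over the 21 receptors. Both medians were larger in size over the bright genes alone, as given at the end. Ligands and receptors each held genes of both directions. Both miR-124 arrays lay above both controls in 10 of 105 probe sets (9.52%, against 18.8% of all), and below both in 18 (17.1%, against 15.9%). Of these 18, 12 belonged to the 42 receptor probe sets and 6 to the 63 ligand probe sets, where several probe sets of a gene count separately. On the brightest probe set of each gene the count was 4 of 21 receptors and 5 of 37 ligands, against 2833 of all 18244 genes.

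**Figure D2:**
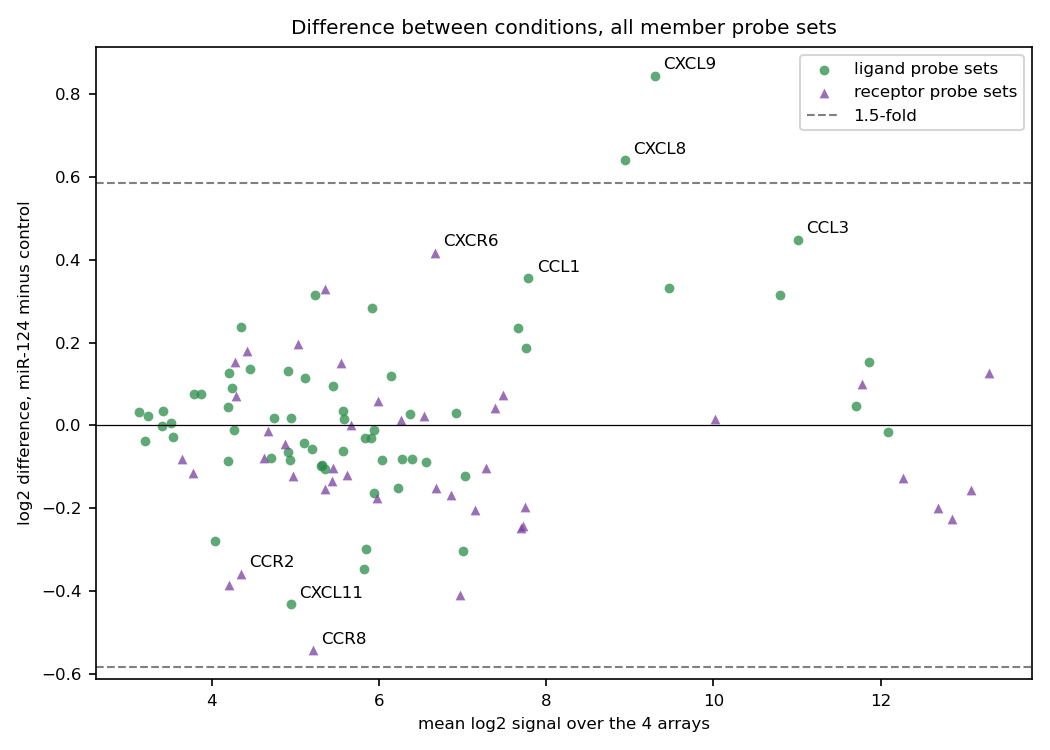
Log2 difference, miR-124 minus control, of each of the 105 member probe sets (circles for ligands, triangles for receptors) against its mean log2 signal over the 4 arrays, with dashed lines at 1.5-fold. CXCL9 (0.84) and CXCL8 (0.64) lie above the upper line, of which CXCL9 alone passed the test, and CCR8 lies at -0.54 near the background mean.

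CXCL9, CXCL10 and CXCL11 are the interferon-inducible ligands of CXCR3, the receptor of T helper 1 and cytotoxic T cells, and CXCL9 was the only member past the threshold. Their genes lie next to each other on chromosome 4, in the order CXCL9, ART3, CXCL10 and CXCL11 of the RefSeq annotation. A link between promoter letters and the array values was not tested. The 3 promoters are shown because these neighbouring genes are all textbook targets of interferon. Each runs from 250 bases before to 50 bases after the start of the gene, in GRCh38.p14 on the minus strand, 5′ to 3′, as RefSeq gives it. Capitals mark matches to an interferon-gamma activated sequence (GAS, TTCNNNGAA), to an interferon-stimulated response element core (ISRE, GAAANNGAAA) and to the NF-kB consensus, each searched on both strands.
CXCL9 promoter, chr4:76007460-76007759: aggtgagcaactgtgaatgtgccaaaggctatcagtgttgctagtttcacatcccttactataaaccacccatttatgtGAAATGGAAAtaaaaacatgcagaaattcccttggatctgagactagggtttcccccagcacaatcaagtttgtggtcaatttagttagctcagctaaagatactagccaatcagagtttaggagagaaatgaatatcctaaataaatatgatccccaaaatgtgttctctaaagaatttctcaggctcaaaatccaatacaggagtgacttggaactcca
CXCL10 promoter, chr4:76023448-76023747: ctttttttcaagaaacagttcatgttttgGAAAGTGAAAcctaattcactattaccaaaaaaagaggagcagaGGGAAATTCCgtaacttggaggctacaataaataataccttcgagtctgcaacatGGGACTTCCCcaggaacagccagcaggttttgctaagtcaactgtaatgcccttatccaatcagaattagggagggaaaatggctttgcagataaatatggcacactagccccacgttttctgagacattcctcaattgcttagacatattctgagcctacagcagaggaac
CXCL11 promoter, chr4:76036021-76036320: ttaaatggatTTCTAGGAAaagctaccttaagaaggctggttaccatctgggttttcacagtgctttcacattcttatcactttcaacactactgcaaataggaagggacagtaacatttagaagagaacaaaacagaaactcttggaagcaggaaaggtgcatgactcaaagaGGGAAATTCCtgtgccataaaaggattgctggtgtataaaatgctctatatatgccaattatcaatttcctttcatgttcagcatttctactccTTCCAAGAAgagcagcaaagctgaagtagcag
The GAS letters did not occur in the windows of CXCL9 and CXCL10 and occurred at 2 places in CXCL11. The ISRE core occurred at 1 place in CXCL9 and 1 in CXCL10 and not in CXCL11. The NF-kB consensus occurred at 2 places in CXCL10, at 1 in CXCL11 and not in CXCL9. None of the marked matches overlapped another. Over all 35116 promoters of this length, 7.66% held the GAS letters, 3.57% the ISRE core and 5.91% the NF-kB consensus. A match is a description of the letters and shows no binding. The lack of a match does not show that an element is absent, because only these exact letters were searched in these windows.

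CXCL9 read 8.97 and 8.80 on the control arrays (mean 8.88 ± 0.12 SD) and 9.85 and 9.60 on the miR-124 arrays (9.73 ± 0.17 SD). Both miR-124 arrays were above both controls, and the gap was larger than the range within either condition. The log2 difference was 0.84 (SE 0.13, 95% confidence interval 0.51 to 1.18), or 1.80-fold, with an unadjusted p of 0.0017 and an adjusted p of 0.88 by limma. CXCL9 exceeded 21 of the 23 background probe sets on every array, and 1 probe set measures it.

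CXCL10, the neighbouring gene, differed by -0.02 (SE 0.24) with a 95% confidence interval of -0.66 to 0.62. CXCL11 read 5.81 and 6.18 in control and 5.45 and 5.94 in miR-124 cells on its brightest probe set (-0.30, SE 0.22, unadjusted p = 0.24 by limma). On the second probe set the arrays also overlapped (-0.35, SE 0.21). The dimmest lay below the background mean on every array but control array 2. There both miR-124 arrays (4.59 and 4.88) were below both controls (5.06 and 5.27), with a log2 difference of -0.43 (SE 0.14, unadjusted p = 0.034 by limma). CXCR3 itself read 6.55 and 6.50 against 6.60 and 6.49, near the middle of the background range, and differed by 0.02 with an interval of -0.22 to 0.26.

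Within each array, the log2 ratio of the CXCL9 signal to the CXCL10 signal was -3.37 and -3.06 in control and -2.47 and -2.23 in miR-124 cells. The ratio to CXCL11 was 3.16 and 2.62 in control and 4.40 and 3.66 in miR-124 cells. Both ratios were higher on both miR-124 arrays, by 0.86 and 1.14 on the log2 scale. The ratios were formed after CXCL9 had been seen to pass and restate its difference beside its partners. A two-sided exact permutation test gave p = 0.333 for each, the smallest value that 2 arrays against 2 allow.

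**Figure D3:**
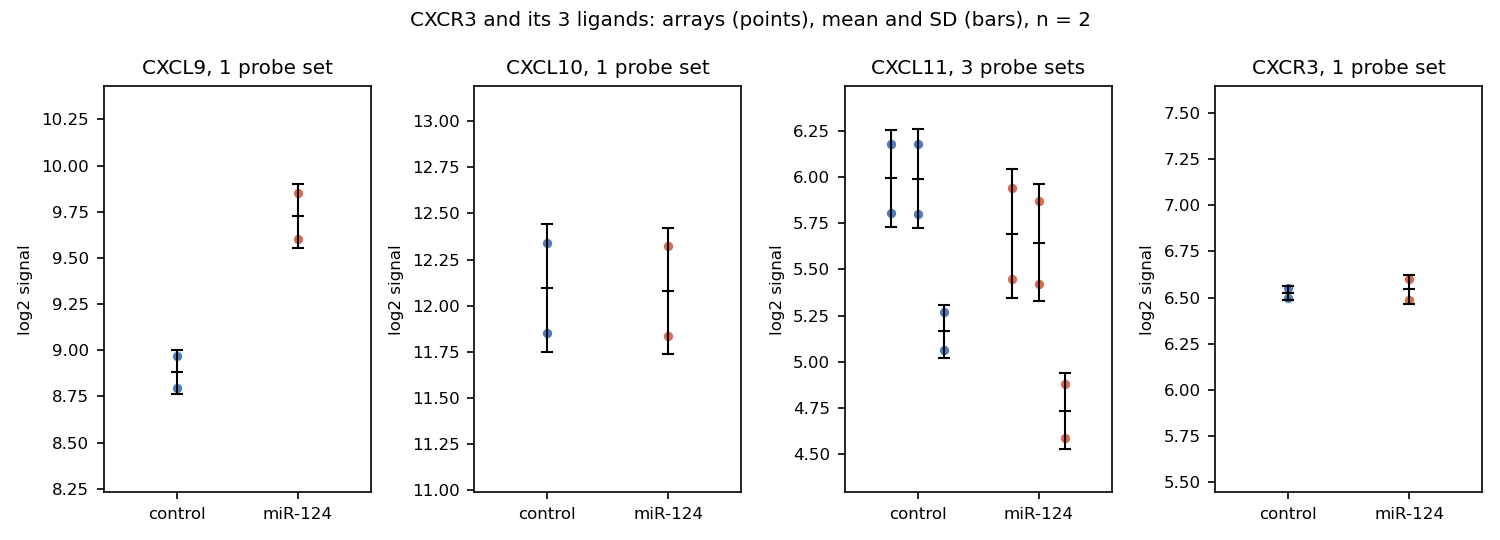
Log2 signal of CXCL9, CXCL10, CXCL11 and their receptor CXCR3 by condition, each gene on its own axis, with points for arrays and bars for the mean and SD of each probe set (n = 2). For CXCL9 both miR-124 arrays (9.85 and 9.60) lie above both control arrays (8.97 and 8.80), whereas the conditions overlap for CXCL10, CXCR3 and the 2 brighter probe sets of CXCL11 and separate, lower in miR-124 cells, on its dimmest.

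Other measures moved with the conditions beside CXCL9. The difference between 3′ and 5′ actin probe sets was 1.17 and 1.13 in control and 0.97 and 0.99 in miR-124 cells, and the background mean was 5.18 on both control arrays and 5.22 and 5.23 on the miR-124 arrays. Of a list of B-cell markers, 5 of the 7 measured were above the background mean and 0 above all background probe sets, and the log2 of their summed signal was 11.06 to 11.20 in control and 11.26 on both miR-124 arrays, with CR2 at 4.72 to 4.90 and MS4A1 at 4.88 to 5.75. Within that list BLK was higher on both miR-124 arrays (9.63 and 9.81 against 10.23 and 10.26, a log2 difference of 0.53), whereas PAX5 (-0.21), CD79B (-0.23) and CD79A (-0.06) were lower on both. Of the markers of cytotoxic and natural killer cells, 6 of 8 were above the background mean and 0 above all background probe sets (summed 9.27 to 9.30 against 9.33 to 9.36), with KLRF1 at 4.13 to 4.17. Here CD8A (0.22) and NCR1 (0.10) were higher on both miR-124 arrays, and CD8B (-0.17) and KLRC1 (-0.10) lower on both. The sums of the T-cell, myeloid, keratinocyte and stromal markers overlapped between conditions. Within the T-cell list, CD3E (0.41), CD28 (0.09) and CD3D (0.07) were higher on both miR-124 arrays. PTPRC (-0.64) and CD5 (-0.10) were lower on both, and the other T-cell markers overlapped. The part of these measures in the result for CXCL9 was not tested.

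CCR8, which marks skin-resident and regulatory T cells, went the other way. It read 5.54 and 5.43 in control and 4.80 and 5.08 in miR-124 cells, so both miR-124 arrays were below both controls. The log2 difference was -0.54 (SE 0.13, interval -0.88 to -0.20, unadjusted p = 0.010 by limma), and at 1.46-fold it did not reach the fold of the threshold. The controls lay a little above the background mean and the miR-124 arrays below it, so the difference between these values may lie within the background.

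The remaining members at an unadjusted p under 0.05 were also near background. ACKR2, which removes inflammatory CC chemokines, read 5.23 and 5.16 in control and 5.54 and 5.51 in miR-124 cells (log2 difference 0.33, SE 0.08, unadjusted p = 0.014 by limma), and its other probe set differed by 0.20 with overlap. CXCL12, the ligand of CXCR4, read 5.20 and 4.97 against 5.42 and 5.37 on its brightest probe set (0.31, SE 0.11, unadjusted p = 0.043 by limma), and its other 4 probe sets differed by -0.07 to 0.08. CCR2, a receptor of monocytes and memory T cells, had 1 of 4 probe sets lower (4.51 and 4.54 against 4.26 and 4.07, -0.36, unadjusted p = 0.021 by limma) and another higher by 0.15. In ACKR2 the probe sets pointed the same way, and in CXCL12 and CCR2 they did not.

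CXCR6, a receptor of tissue-resident T cells, read 6.35 and 6.57 in control and 6.69 and 7.07 in miR-124 cells. Both miR-124 arrays were above both controls, at a log2 difference of 0.42 (SE 0.17, interval -0.03 to 0.86, unadjusted p = 0.062 by limma), which did not pass. Its signal was above the background mean and inside the range of the background probe sets. CXCR6 lies outside the rule for named genes and was chosen after its values were seen.

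For some members the array number separated the values more than the condition did. CXCL8 was higher on the array numbered 2 than on the array numbered 1 by 2.52 on the log2 scale in control (5.75-fold) and by 2.30 in miR-124 cells (4.93-fold). CCL3 was higher by 2.33 (5.02-fold) and 2.90 (7.46-fold). Both attract innate immune cells, and in both the arrays numbered 2 of the 2 conditions lay closer to each other than to the arrays numbered 1. The corresponding differences between conditions were 0.64 (SE 1.13, interval -2.36 to 3.64) for CXCL8 and 0.45 (SE 1.23, interval -2.82 to 3.72) for CCL3. The CXCL8 difference exceeded 1.5-fold on its brightest probe set (1.56-fold, unadjusted p = 0.60 by limma). Between arrays of equal number CXCL8 was higher in miR-124 cells by 0.75 and 0.53, and CCL3 by 0.16 and 0.73. The other CXCL8 probe sets gave condition differences of 0.28 and -0.03. CCL22 was higher on the arrays numbered 2 by 0.84 in control and 1.78 in miR-124 cells, and CCR6 by 0.94 and 1.38.

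These 4 genes of 58 (6.9%) were more than 1.5-fold higher on the array numbered 2 in both conditions, against 0.987% of all genes. On probe sets the count was 8 of 105 (7.62%, against 0.913% of all), namely 3 of CXCL8, 2 of CCL22, 2 of CCR6 and that of CCL3. The count in the other direction was 0 (against 0.345% of all probe sets). CXCL10 ran the opposite way, with differences of -0.49 in control and -0.48 in miR-124 cells, and so did CXCL9 with -0.17 and -0.24. By their brightest probe sets CXCL1, CXCL2 and CXCL3 were also lower on the arrays numbered 2, with differences of -0.61 to -0.04. Outside the members, TTR from the list of other tissues was higher by 2.13 in control and 2.39 in miR-124 cells. What the number stands for is not given in the sources used here, and no test was made with 1 array per number and condition.

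**Figure D4:**
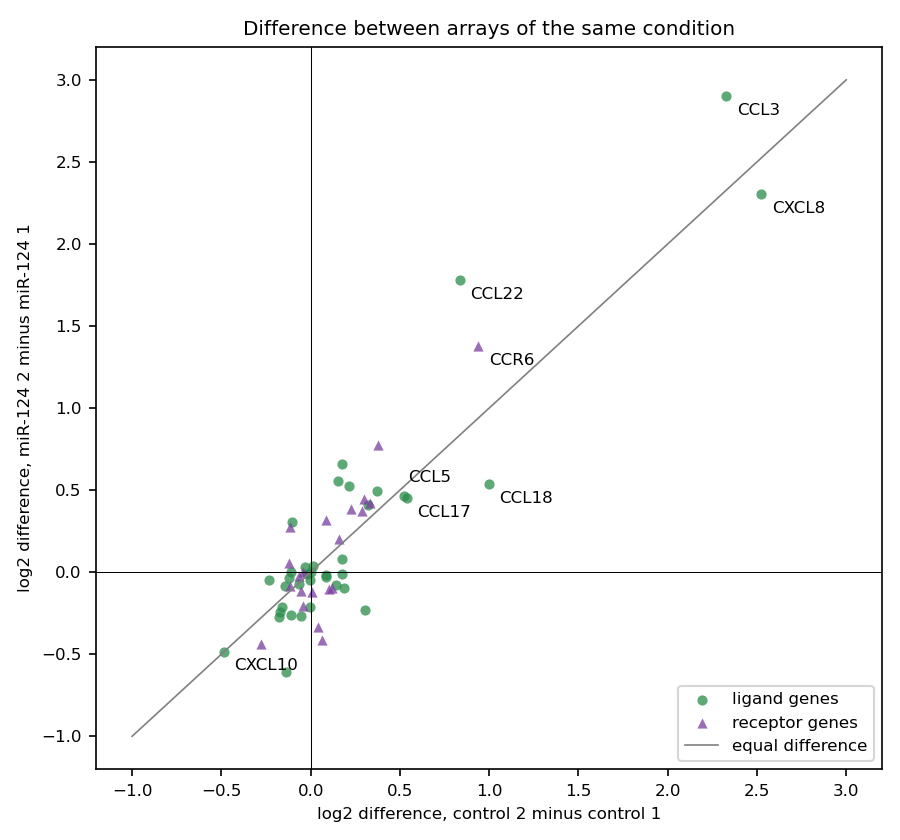
Log2 difference between the arrays numbered 2 and 1 in control cells (horizontal axis) and in miR-124 cells (vertical axis) for the brightest probe set of each chemokine ligand and receptor gene. CCL3 (2.33 and 2.90) and CXCL8 (2.52 and 2.30) lie far to the upper right, followed by CCR6 and CCL22, while CXCL9 and CXCL10 lie below 0 on both axes.

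Genes of and around the receptor signal were read from a list of G protein subunits, receptor kinases, arrestins, GTPases and regulators of the actin skeleton. The list also held integrins, RGS genes, further kinases such as JAK2, other receptors such as S1PR1, and DPP4, TPST1 and TPST2. Of its 66 genes, 62 were on the array. Of these, 48 read above the median gene, and the highest were GNAI2, a subunit of the inhibitory G protein (mean 13.3), ELMO1, a regulator of Rac, CORO1A, an actin-binding protein of lymphocytes, and CDC42, a GTPase of cell polarity. The list held 0 genes past the study's threshold, and 10 of its 199 probe sets had an unadjusted p under 0.05 (5.03%, against 4.73% of all). In miR-124 cells 8 of them were higher (4.02%, against 2.68% of all) and 2 lower (1.01%, against 2.05% of all). Several probe sets of a gene count separately here. By the brightest probe set, the miR-124 mean exceeded that of control in 40 genes (64.5%, against 51.8% of all genes) and fell short of it in 22. The median log2 difference was 0.08 (0.01 over all genes). On that probe set, 2 of the 62 genes had an unadjusted p under 0.05 (3.23%, against 741 of all 18244 genes), GRK6 higher and ROCK1 lower. GRK6, a kinase that desensitizes chemokine receptors, read 8.91 and 8.95 in control and 9.37 and 9.13 in miR-124 cells (0.32, SE 0.11, unadjusted p = 0.043 by limma), and its 4 probe sets gave 0.28 to 0.32. ROCK1, a kinase of cell contraction, read 10.87 and 10.67 against 10.49 and 10.35 (-0.35, SE 0.12, unadjusted p = 0.031 by limma). Both were separated by condition and neither reached 1.5-fold.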

How the data were processed

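RNA of SeAx cells, 2 control arrays and 2 of cells with the miR-124 vector, was hybridized to Affymetrix PrimeView arrays, and groups and numbers came from the sample titles and condition labels. One paragraph of the study's methods names Agilent arrays, whereas another and the array annotation name PrimeView. The deposited values are log2 signals, for which the authors used background correction, quantile normalization and RMA. RMA and limma stand without versions in the submitters' processing notes. Quantile normalization hides a change in the total RNA content of the cells, and the number of arrays limits the precision.

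The log2 values were used as deposited. Of 49495 probe sets, 202 array controls were left out, and 49293 were fitted in R 4.3.3 (limma 3.58.1, lmFit and eBayes with condition only, 2 residual and 2.56 prior degrees of freedom), with Benjamini-Hochberg adjustment over all. Scripts were tested on simulated data. Symbols came from the platform annotation (45278 probe sets with 1 symbol, 1333 with several, 2682 with none), and all 105 member probe sets matched a RefSeq gene. Signals from near-identical genes cannot be separated. Some genes are not reported here.

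Members and lists were chosen with earlier results of these data known. Named genes were those brighter than the median gene, those with a probe set at an unadjusted p under 0.05, those the paper names, the CXCR3 axis and the homing receptors. Other members stand in counts or are marked. Alternatives were other background limits, the array number as a block, each array left out in turn, dim probe sets left out, cyclic loess, array weights, a prior with trend and robust fitting, and gene-level fits.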

Additional observations from a re-analysis of the deposited data

How the results depend on the processing

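CXCL9 passed the threshold in every setting tried, with a log2 difference of 0.72 to 0.97 when 1 array was left out. CCR8, at -0.54, passed without control array 2 (-0.60) and without miR-124 array 2 (-0.68), and its range with 1 array left out was -0.68 to -0.40. It has no value where probe sets under the median were left out. The number of member probe sets past the threshold was 1 in every setting with all 4 arrays except the block by array number, with the same counts over member genes. With 1 array left out it rose, and so did the number over all probe sets. Those past it without miR-124 array 1 were CXCL9, CXCL3 (-0.61), CXCR6 (0.61), CCL22 (1.22), CCL1 (0.68) and a dimmer probe set of CXCL8 (1.11). Without control array 1 a dimmer probe set of CCR6 (-0.94) joined CXCL9 (0.93). The 6 member probe sets at an unadjusted p under 0.05 (4.73% of all) became 2 without control array 2 (2.06% of all), 3 without control array 1 (0.988%), 4 without miR-124 array 2 (3.42%), 13 without miR-124 array 1 (10.7%), 1 with probe sets under the median left out (4.61%) and 3 when the probe sets of each gene were averaged (4.42%). With 1 array left out, the remaining array of its condition is taken to vary as the other condition does.

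No source says that equal array numbers pair the arrays. Their deviations correlated at 0.64 over all probe sets and at 0.85 over the member probe sets. With the array number as a block, 2 member probe sets of 2 genes passed, CXCL9 (0.84) and CXCL8 (0.64, unadjusted p = 0.0014 by limma), against 167 of all (0.339%), and 16 had an unadjusted p under 0.05, against 13.7% of all. CCL17, CCL3 and ACKR4 were among them by p and stayed under 1.5-fold. Their log2 differences were 0.23, 0.45 and -0.24 (unadjusted p = 0.035, 0.037 and 0.040 by limma).

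Of 214 alternative values for 20 other named genes, 190 kept their direction and their side of the threshold, and 3 passed it, those of CXCL8 under the block and of CCL1 and CCL22 without miR-124 array 1. The remaining 21 changed sign, each with 1 array left out and none past the threshold. The log2 difference then ranged from -1.001 to 1.90 for CCL3, -0.62 to 1.90 for CXCL8, -0.56 to 1.22 for CCL22, -0.11 to 0.42 for CCL5, -0.035 to 0.50 for CCL17, -0.13 to 0.40 for CCL20 and -0.26 to 0.23 for CXCL10. For receptors it ranged from -0.94 to 0.44 for CCR6, -0.58 to 0.19 for ACKR3, -0.15 to 0.29 for CCR10, -0.059 to 0.26 for CCR4, -0.34 to 0.031 for CXCR4 and -0.034 to 0.078 for CXCR3.

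The median difference over ligand genes (0.02) was -0.045 to 0.030 with 1 array left out and 0.34 over the bright ones, and over receptor genes (-0.05) it was -0.077 to -0.0080 and -0.16. The medians over bright genes rest on few members and have no value over all bright genes beside them. The count of genes above background depended on the limit. It was 21 ligands and 14 receptors for the background mean, 4 and 3 for the 95th percentile of the background probe sets, 7 and 4 for the median of all probe sets, and 5 and 3 for the 95th percentile of genes of other tissues.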
